A study of Mus musculus with 4 samples.

Results

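The genes examined here encode the protein subunits of the mitochondrial ribosome, the machine inside mitochondria that makes the few proteins encoded by mitochondrial DNA. They were chosen by symbol alone, as every gene whose symbol begins with Mrpl (large subunit) or Mrps (small subunit) followed by a digit. This gave 75 of the 19564 genes listed, of which 46 carried large subunit symbols and 29 small subunit symbols. Their levels were read in 4 populations of red cell precursors from the E14.5 fetal liver of the mouse, sorted by flow cytometry on the erythroid surface protein TER119 and the transferrin receptor CD71. R2 held proerythroblasts and early basophilic erythroblasts, R3 early and late basophilic erythroblasts, R4 mainly polychromatophilic and orthochromatophilic erythroblasts, and R5 late orthochromatophilic erythroblasts with reticulocytes. RNA came from freshly sorted cells that were never cultured, the labels name no genotype, strain, treatment or number of fetuses, and polyadenylated RNA gave 1 library per population.

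All proteins of the mitochondrial ribosome are encoded in the nucleus, made in the cytosol and imported, and they assemble on ribosomal RNAs transcribed from mitochondrial DNA. The finished particle makes only core subunits of the respiratory chain and ATP synthase. Some of its proteins are counterparts of bacterial ribosomal proteins, and others are found only in mitochondria. During terminal maturation red cell precursors use mitochondria for heme synthesis, and reticulocytes then clear the organelle. The polyadenylated, nuclear transcripts measured here report on the supply of messenger RNA, not on assembled ribosomes.

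The authors deposited RPKM values, in which reads are divided by gene length and by library size. A ratio is the log2 of RPKM + 1 in one library over RPKM + 1 in another, which understates the difference of low genes, and a gene is called where the ratio reaches 2-fold in either direction. The 9942 genes that reached 1 RPKM in any library form the background, and all 75 mitoribosomal genes were among them. With 1 library per population no difference has a replicate check, so counts and medians describe these 4 libraries, and genes are not replicates of a population. Fewer cells of a type and less RNA per cell cannot be told apart in such bulk values. The spacing of the RPKM values implied a depth of 20724192 to 27418665 reads per library. Globin genes took 5.52%, 59.4%, 80.4% and 81.9% of all RPKM in R2, R3, R4 and R5. All 10 erythroid markers examined were at or above 1 RPKM in every library. The summed RPKM of 12 granulocyte markers was 6271, 441, 241 and 481 in R2, R3, R4 and R5, with none at 0.

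RefSeq promoters of build GRCm38.p6, from 250 bases before the transcript start to 50 after it, were found for 66 of the 75 genes, as 72 promoters. They were searched on both strands for short motifs of 5 factor families, none of which contains another. The ETS motif CCGGAAGT, of the family that includes GABP, stood in 16.7% of the mitoribosomal promoters, in 8.38% of the 8850 promoters of background genes and in 3.89% of all 32851 promoters. The YY1 motif AAGATGGC stood in 15.3%, 4.86% and 2.75%, and the NRF1 core CGCATGCG in 9.72%, 4.21% and 1.87%. A longer NRF1 form, with a G before the core and a C after it, stood in 4.17%, 2.31% and 0.971%. The CREB motif TGACGTCA (2.78%, 3.07% and 1.79%) and the E-box CACGTG (9.72%, 10.6% and 7.15%) were about as frequent in mitoribosomal promoters as in those of background genes. Of the 72 mitoribosomal promoters, 12 had the ETS motif, 11 YY1, 7 the NRF1 core, 3 its longer form, 2 CREB and 7 the E-box. The promoters with the E-box belong to 5 genes. All of these are matches of letters, not shown binding sites. The 12 genes with the ETS motif and the 11 with the YY1 motif had median R5 against R2 ratios of -2.17 and -1.93, against -1.94 and -1.99 for the matched genes without each. For the 7 genes with the NRF1 core the median was -2.19, against -1.96 without it.

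Promoter stretches from 170 bases before to 30 after the start are shown because their genes recur below, and the capitals mark the motif matches. Mrps27, with 1 of the largest differences between R2 and R3, had a reverse ETS match starting 49 bases before the start and a YY1 match just after it (chr13:99344616-99344815, GRCm38.p6, plus strand). Mrpl52, the large subunit gene with the second highest mean level, had a reverse ETS match just after the start (chr14:54426739-54426938, plus strand). Mrps26, the small subunit gene with the second highest mean level, had a reverse ETS match just before the start (chr2:130563587-130563786, plus strand). Mrpl32, among the genes with the smallest differences, had NRF1 core matches starting 86 and 23 bases before the start (chr13:14613008-14613207, minus strand). Mrps18a, compared below with its paralogues, had a YY1 match just after the start (chr17:46110834-46111033, plus strand).
Mrps27: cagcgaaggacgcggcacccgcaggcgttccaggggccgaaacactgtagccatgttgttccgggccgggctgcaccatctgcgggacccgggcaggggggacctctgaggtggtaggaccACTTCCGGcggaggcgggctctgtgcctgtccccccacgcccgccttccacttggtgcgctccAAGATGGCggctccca
Mrpl52: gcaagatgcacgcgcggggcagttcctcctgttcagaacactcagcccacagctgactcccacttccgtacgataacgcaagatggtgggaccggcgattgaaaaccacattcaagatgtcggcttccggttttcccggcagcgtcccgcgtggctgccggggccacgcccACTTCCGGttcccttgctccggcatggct
Mrps26: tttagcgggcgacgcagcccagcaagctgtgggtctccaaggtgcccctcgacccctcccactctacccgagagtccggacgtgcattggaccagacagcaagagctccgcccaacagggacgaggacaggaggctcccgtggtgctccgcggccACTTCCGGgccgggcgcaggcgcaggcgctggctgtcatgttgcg
Mrpl32: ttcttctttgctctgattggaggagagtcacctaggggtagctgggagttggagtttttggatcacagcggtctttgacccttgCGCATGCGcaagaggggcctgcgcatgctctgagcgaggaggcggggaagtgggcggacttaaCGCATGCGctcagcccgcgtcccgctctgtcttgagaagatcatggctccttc
Mrps18a: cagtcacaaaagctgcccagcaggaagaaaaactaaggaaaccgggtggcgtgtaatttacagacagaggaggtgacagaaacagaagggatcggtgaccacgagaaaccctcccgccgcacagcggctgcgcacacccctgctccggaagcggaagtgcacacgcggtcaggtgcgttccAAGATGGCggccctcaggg

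Every mitoribosomal gene had its highest RPKM in R2, 75 of 75, against 86.2% of background genes, and 71 had their lowest in R4, against 73.2%. The median level of the 75 was 42.3, 15.4, 5.66 and 9.72 RPKM in R2, R3, R4 and R5. The order R2, R3, R5, R4 from high to low held for 67 of the 75 and for 57.4% of background genes, so R5, the most mature population, stood above R4 for most of the family. This full order depended on the scaling: it held for 39 genes with globin genes left out of the totals (29.5% of background genes) and for 16 after scaling each library to the median of widely measured genes (13.3%). In R5 against R2, 74 of the 75 were at least 2-fold lower and none higher, with 76.9% of background genes called lower and 2.74% called higher. Their median ratio was -1.97, against -1.65 over all background genes. In R2, 73 of the 75 were at 5 RPKM or more, while the background also holds genes near 1 RPKM, whose ratios the added 1 RPKM makes smaller. With 0.1 RPKM added in place of 1 the medians were -2.134 and -2.127. Among genes that reached 5 RPKM in any library they were -1.99 and -1.88. The distance from the background thus depended on the value added and on the filter.

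**Figure D1:**
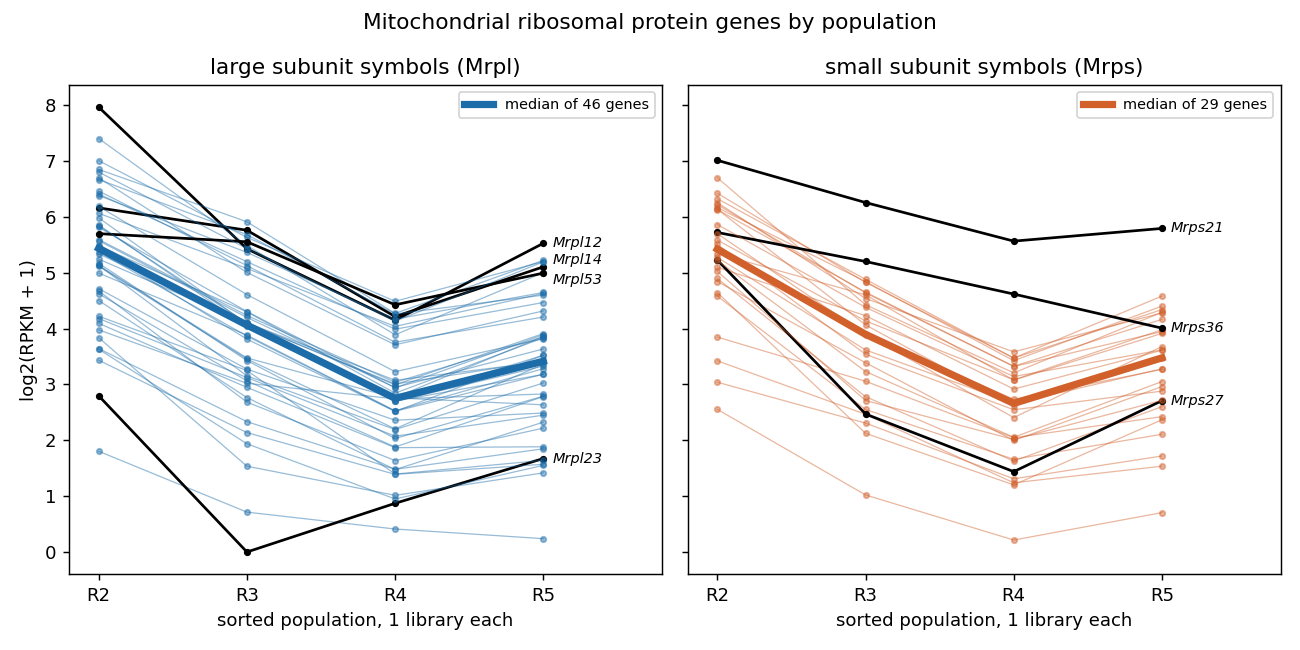
Level of each mitochondrial ribosomal protein gene as log2(RPKM + 1) in the 4 sorted populations (1 library each), large subunit symbols on the left and small on the right. Thin lines are single genes, thick lines the medians of 46 and 29 genes, and black lines genes named in the text; both medians are highest in R2, lowest in R4 and higher again in R5.

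Among the large subunit genes, Mrpl12, the stalk protein through which translation factors are recruited, had the highest mean level, at 248.5, 42.0, 16.7 and 45.1 RPKM in R2, R3, R4 and R5. Its R5 against R2 ratio was -2.44, and the difference was already as large between R2 and R3 (-2.54), and R5 stood slightly above R3. Mrpl52, a protein found only in mitochondrial ribosomes, was at 168, 43.8, 13.8 and 31.0 RPKM in R2, R3, R4 and R5. Mrpl34, a counterpart of a bacterial large subunit protein, was at 127, 48.6, 21.4 and 35.8 RPKM. These 3 genes shared the order of the family's median apart from the higher R5 value of Mrpl12. Mrpl28, another bacterial counterpart, was at 114, 59.2, 18.3 and 36.3 RPKM. Mrpl54, found only in mitochondrial ribosomes, was at 110, 42.2, 16.5 and 35.6 RPKM. Mrpl18, a protein of the central protuberance of the large subunit, was at 101, 50.3, 18.2 and 23.2 RPKM, and its R5 value stood further below R3 than that of Mrpl28 or Mrpl54 (R5 against R3 -1.08, against -0.69 and -0.24).

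Mrpl53, a mitochondria-specific protein, was the single gene of the family that was not 2-fold lower in R5 than in R2. It was at 50.9, 46.0, 20.5 and 30.8 RPKM in R2, R3, R4 and R5, a ratio of -0.71. As deposited, R2 and R3 were close for this gene (-0.15), and the difference lay between R3 and R4 (-1.13). With globins left out these ratios were 0.61 and -0.48, and after median scaling 0.71 and -0.08. Mrpl14, which lies at the interface with the small subunit, followed a like course at 70.5, 53.2, 17.6 and 33.4 RPKM, with a ratio of -1.06. Mrpl32, the protein whose trimming by a mitochondrial protease is required for ribosome assembly, was at 14.7, 7.11, 5.69 and 6.10 RPKM, with a ratio of -1.15. As deposited, its 3 later populations differed little, with an R4 against R3 ratio of -0.28 and an R5 against R4 ratio of 0.09. With globins left out these were 0.31 and -0.09, and after median scaling 0.68 and -0.24. Mrpl23, a protein at the exit of the polypeptide tunnel, was at 5.94 RPKM in R2, listed at 0 in R3, and at 0.83 and 2.19 in R4 and R5. These values stand on 6, 0, 1 and 2 reads over 44 countable bases, so no order of its levels is read.

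At the other end, Mrpl35, a bacterial counterpart, had the lowest ratio of the large subunit genes, at 17.6, 8.51, 1.63 and 2.12 RPKM in R2, R3, R4 and R5 and -2.58. Its largest step was R4 against R3 (-1.85), the lowest of the family in that step, and R5 stayed near R4. Mrpl48, a central protuberance protein, was at 34.0, 10.1, 5.77 and 5.21 RPKM (-2.49). Mrpl44, a protein related to ribonuclease III, was at 24.5, 5.42, 2.11 and 3.65 RPKM (-2.45). Mrpl1 was the least abundant gene of the family by mean level, at 2.49, 0.64, 0.33 and 0.18 RPKM.

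**Figure D2:**
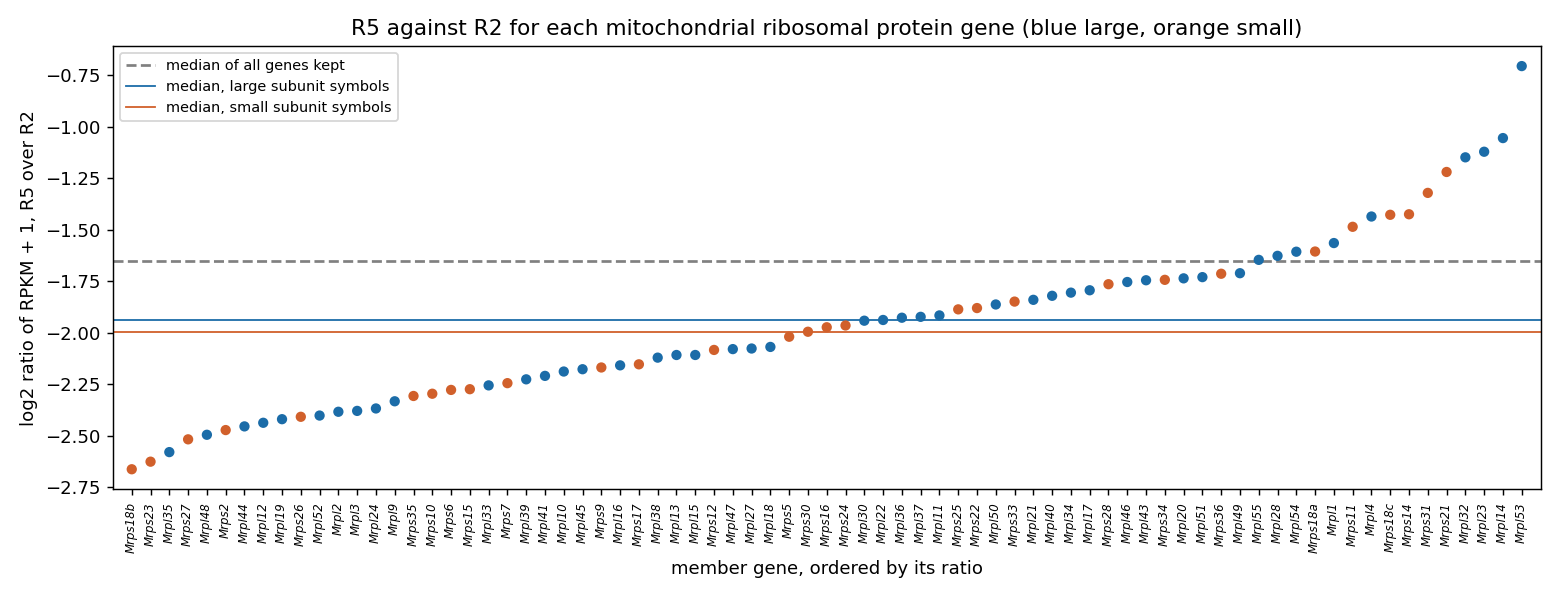
Ratio of R5 to R2 for each of the 75 genes, as log2 of RPKM + 1, ordered from lowest to highest, with large subunit symbols in blue and small in orange. Solid lines mark the medians of the 2 subunits (-1.94 and -1.99) and the dashed line that of all background genes (-1.65); colours mix along the whole order, and Mrpl53 stands highest.

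Among the small subunit genes, Mrps21, a small bacterial counterpart, had the highest mean level and 1 of the smallest differences. It was at 128, 75.4, 46.3 and 54.4 RPKM in R2, R3, R4 and R5, with a ratio of -1.22, and in R3, R4 and R5 it was the most abundant gene of the whole family. Only 133 of its bases were countable, and the 4 values stand on 391, 257, 169 and 150 reads. Mrps26, found only in mitochondrial ribosomes, was at 103, 20.5, 8.23 and 18.6 RPKM, so that R3 was already close to its R5 level. Mrps12, the decoding centre protein, was at 84.8, 27.4, 10.1 and 19.2 RPKM. Mrps34, a mitochondria-specific protein needed for stability of the small subunit, was at 79.1, 28.5, 10.1 and 22.9 RPKM. Mrps28 was at 70.8, 27.6, 9.74 and 20.1 RPKM. The last 3 had the order of the family's median, with R5 well above R4 (ratios of 0.87, 1.11 and 0.98).

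Smaller differences between R2 and R5 were also seen in Mrps31, at 7.22, 3.95, 1.48 and 2.29 RPKM (-1.32), and in Mrps14, a counterpart of a bacterial small subunit protein, at 13.4, 7.32, 3.13 and 4.36 RPKM (-1.42). The lowest ratios in the small subunit were those of Mrps18b (-2.66, values below), Mrps23, Mrps27 and Mrps2. Mrps23, a mitochondria-specific protein, was at 44.4, 10.6, 4.84 and 6.36 RPKM (-2.63). Mrps27, a pentatricopeptide repeat protein, was at 36.4, 4.54, 1.71 and 5.54 RPKM (-2.52), and its R5 value stood above that in R3. Mrps2, a bacterial counterpart, was at 22.9, 4.86, 2.16 and 3.31 RPKM (-2.47).

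The 2 subunits differed by less than the spread among their genes, in level and in ratio. In R2 the median was 42.3 RPKM for the large and 41.9 for the small subunit, in R3 15.7 and 13.9, in R4 5.73 and 5.32, and in R5 9.67 and 10.1. The large subunit median ratio exceeded that of the small subunit by 0.06 for R5 against R2 and by 0.16 for R3 against R2, and the difference was -0.07 for R4 against R3 and -0.08 for R5 against R4. Single genes differed far more within a subunit, with an SD of 0.41 over the large and 0.39 over the small subunit genes for R5 against R2. In that comparison 27 of the 29 small subunit genes lay inside the range of the large subunit genes. Mrps30 and Mrps18a lie in the large subunit of the assembled particle despite their symbols, and Mrps36 is now known as a component of the oxoglutarate dehydrogenase complex. With these genes placed accordingly, 48 large subunit genes stood against 26 of the small, and the difference for R5 against R2 was 0.11. Mrps30 itself was at 37.7, 11.3, 5.32 and 8.71 RPKM, near the medians of both subunits.

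Differences by origin were likewise small beside that spread. The R5 against R2 median was -2.07 for the 29 large subunit genes with a bacterial counterpart and -1.93 for 18 mitochondria-specific ones (Mrps30 and the gene D10Ertd322e, an older symbol of Mrpl42 in RefSeq that the symbol rule leaves out, included). In the small subunit it was -2.05 for 16 counterparts and -1.89 for 9 mitochondria-specific genes. By level, the mitochondria-specific small subunit genes had a median of 31.5 RPKM in R2 and 5.55 in R3, and the counterparts 46.4 and 18.8. D10Ertd322e was at 42.9, 13.5, 5.53 and 10.5 RPKM in R2, R3, R4 and R5, close to the family's median in every population.

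Between R2 and R3, 61 of the 75 genes were at least 2-fold lower in R3, 39 of the large and 22 of the small subunit, with 55.1% of background genes called, and none was higher, with 3.81% called. The median ratio was -1.48, against -1.09 over background genes. With 0.1 RPKM added in place of 1 these medians were -1.54 and -1.37. They were -0.71 and -0.47 with globins left out, and -0.61 and -0.37 after median scaling. Under either scaling most of the 75 genes were thus not 2-fold lower in R3. The lowest ratios were those of Mrpl23, which was listed at 0 in R3, and of Mrps27 (-2.76), and the highest those of Mrpl53 (-0.15) and Mrpl14 (-0.40). The 14 genes that were not 2-fold lower as deposited were equal in number in the 46 large and the 29 small subunit genes. Their share was thus larger in the small subunit. Besides Mrpl53 and Mrpl14 they included the abundant Mrpl18, Mrpl28 and Mrps21.

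Between R3 and R4, 55 genes were at least 2-fold lower in R4, 36 of the large and 19 of the small subunit, with 32.1% of background genes called, and none was higher, with 0.493% called. The median ratio was -1.20, against -0.77 over background genes. With 0.1 RPKM added in place of 1 these medians were -1.36 and -1.11. They were -0.64 and -0.34 with globins left out, and -0.26 and -0.07 after median scaling. Under these scalings only Mrpl35 (-1.41 and -1.06) stayed at least 2-fold lower in R4. The following ratios are as deposited. Mrpl35 (-1.85) and Mrpl28 (-1.64) had the lowest ratios among genes that reached 5 RPKM in R3 or R4, and Mrpl32 (-0.28) and Mrps36 (-0.58) the highest. Mrpl28 and Mrpl35 had both been less than 2-fold lower in the step before. Summed markers of other cells were also lower in R4 than in R3, at 566 and 193 RPKM for 9 hepatocyte markers, 57.0 and 24.0 for 10 macrophage markers, 45.7 and 24.4 for 8 megakaryocyte markers and 441 and 241 for the granulocyte markers, with none of these at 0, and their part in the mitoribosomal difference was not tested.

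Between R4 and R5 the direction was the other way. The level in R5 was above that in R4 for 72 of the 75 genes and also for most background genes. The median ratio was 0.69, against 0.27 over background genes. With globins left out these medians were 0.53 and 0.18, and after median scaling 0.37 and 0.07. After median scaling further genes were lower in R5 than in R4, among them Mrpl32 (-0.24) and Mrps21 (-0.13). As deposited, 11 of the 75 were at least 2-fold higher in R5, 6 of the large and 5 of the small subunit, with 3.97% of background genes called. None was 2-fold lower, with 0.604% called. The highest ratios were those of Mrpl12 (1.38) and of Mrps5 (1.27), a protein of the messenger RNA channel that was at 50.9, 13.9, 4.30 and 11.8 RPKM in R2, R3, R4 and R5. The others were Mrpl11, Mrpl38, Mrpl46, Mrpl52, Mrpl54, Mrps6, Mrps26, Mrps27 and Mrps34. Without the added 1 RPKM the order of single genes differed, with R5 to R4 ratios of 3.24 for Mrps27, 3.20 for Mrps6 and 2.69 for Mrpl12. Of the 3 genes of the stalk and its base, Mrpl12 and Mrpl11 (1.01) were among the 11, and Mrpl10 stood at 0.66. The markers of other cells moved in this step too: summed RPKM in R4 and R5 was 241 and 481 for the 12 granulocyte markers, 24.0 and 56.9 for 10 macrophage markers, 24.4 and 72.4 for 8 megakaryocyte markers and 193 and 411 for 9 hepatocyte markers. In R4 no granulocyte, macrophage, megakaryocyte or hepatocyte marker was at 0. The part of these cells in the higher R5 values was not tested.

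R5 and R3 were closer to each other than either was to R2. The median ratio of R5 against R3 was -0.49, against -0.47 over background genes, and 4 genes were at least 2-fold lower in R5 (Mrpl18, Mrpl35, Mrpl41 and Mrps36), with 13.1% of background genes called. The direction of this median depended on the scaling, at -0.08 with globins left out and 0.12 after median scaling, against -0.15 and 0.02 over background genes. The 1 gene called higher was Mrpl23, listed at 0 in R3, with 0.664% of background genes called. Mrpl12, Mrps27, Mrps35 and Mrps6 had also more RPKM in R5 than in R3.

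**Figure D3:**
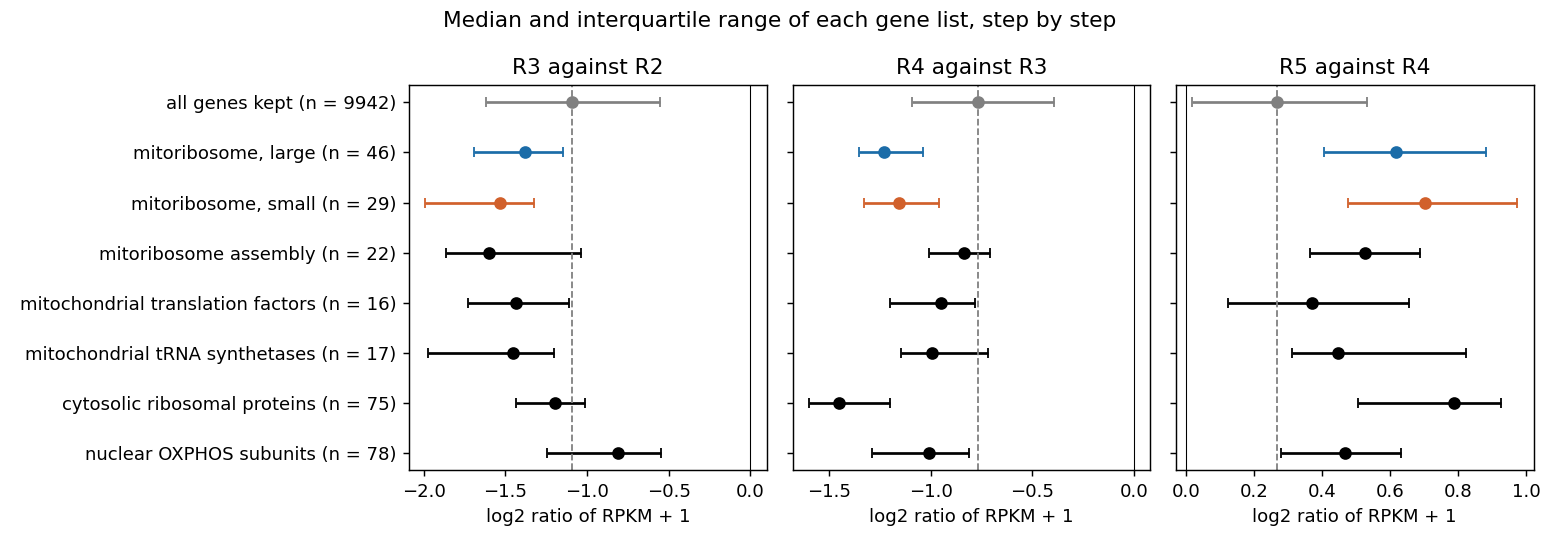
Median (point) and interquartile range (bar) of the log2 ratio of RPKM + 1 in each step for the large and small mitoribosomal genes and for other gene lists, with the number of genes of each; the dashed line marks the median of all 9942 background genes. Both mitoribosomal groups lie left of the dashed line in the first 2 steps and right of it in the last.

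The 3 paralogues related to bacterial ribosomal protein S18 occupy different positions in the same mitochondrial ribosome and did not keep their proportions. Mrps18a was at 47.0, 16.6, 7.47 and 14.8 RPKM in R2, R3, R4 and R5. Mrps18b was at 69.4, 15.7, 5.15 and 10.1 RPKM. Mrps18c was at 39.5, 23.3, 7.43 and 14.1 RPKM. Mrps18b was thus the highest of the 3 in R2 and the lowest in R3, R4 and R5, while its share of their summed RPKM went from 44.5% in R2 to 28.3%, 25.7% and 26.0%. The share of Mrps18c was 25.4%, 41.9%, 37.1% and 36.1%, and that of Mrps18a 30.1%, 29.8%, 37.3% and 37.9%. The R3 to R2 ratio of RPKM was 0.227 for Mrps18b (95% exact interval 0.180 to 0.283, from 100 and 395 reads) and 0.590 for Mrps18c (0.468 to 0.740, from 129 and 196 reads). For R5 to R2 it was 0.146 (0.107 to 0.195) for Mrps18b and 0.356 (0.264 to 0.475) for Mrps18c, so the intervals of the 2 genes did not overlap in either comparison. These intervals cover counting error only, and any common scaling of a library leaves the shares as they are.

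**Figure D4:**
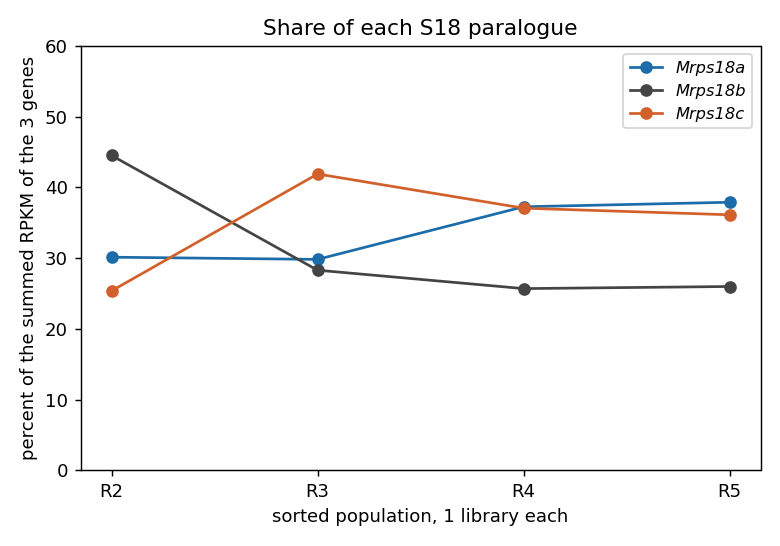
Share of each S18 paralogue in the summed RPKM of the 3 genes, in percent, in the 4 sorted populations (1 library each). Mrps18b goes from 44.5% in R2 to 28.3% in R3 and Mrps18c from 25.4% to 41.9%; the 3 shares differ less between R4 and R5.

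Mrps36 had a course of its own among genes with the small subunit symbol, at 51.7, 35.8, 23.6 and 15.1 RPKM in R2, R3, R4 and R5. As deposited it was lower in each population than in the one before, whereas 72 of the 75 genes had R5 above R4. The steps up to R4 depended on the scaling. With globins left out, R3 against R2 was 0.24 and R4 against R3 0.07, and after median scaling they were 0.34 and 0.47. R5 against R4 stayed negative under both scalings (-0.81 and -0.98). Only 48 bases were countable, and the values stand on 57, 44, 31 and 15 reads. The R3 to R2 ratio of RPKM was 0.691 with an interval of 0.456 to 1.04, and the R4 to R3 ratio 0.658 with 0.402 to 1.07. Over R5 to R2 the ratio was 0.292 (0.153 to 0.522). The R5 to R4 ratio was 0.640 with an interval of 0.321 to 1.22, so in no single step was a difference from 1 detectable at this depth. The family's median R5 to R4 ratio of RPKM, without the added 1 RPKM, was 1.71, outside that interval. Mrpl48 and Mrpl1 also had less RPKM in R5 than in R4, and the ratio of Mrpl48 was 0.903 (0.548 to 1.47, from 30 and 44 reads).

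The reads behind the values set what can be told apart between members. Reads were worked out from fitted countable bases for 11 genes and otherwise from an annotated length, which may overstate them. In the 11 genes the fitted bases were a median of 0.298 of the annotated length (0.0636 to 0.533), a ratio that the limit of 300 bases searched partly sets. With the annotated lengths halved, the median gene stood on 590, 241.5, 92.5 and 114.5 reads in R2, R3, R4 and R5, and 69 of the 75 had at least 30 reads in every library. Unhalved, the medians were 1136, 426, 177 and 218 reads. The following counts use the halved estimates. The median they are set against is that of the family's ratios of RPKM without the added 1 RPKM. For R5 against R2 this median was 0.226. The interval of 38 genes held it, that of 18 lay above it and that of 19 below it. Mrpl53, Mrpl14 and Mrps21 were among those above, and Mrpl12, Mrpl52, Mrps18b, Mrps23 and Mrps27 among those below. For R4 against R3 the interval of 61 genes held the median and for R5 against R4 that of 59, so single genes were less distinct in the later steps. The order of the genes by level was much the same in all libraries, with Spearman's rho from 0.902 (R2 and R4) to 0.976 (R3 and R4) over the 75 genes, which share gene lengths and countable bases between libraries.

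RPKM is relative to a total, of which globin genes held most in R3, R4 and R5, and most background genes also had negative ratios against R2. The 75 genes together held 0.972%, 0.259%, 0.0809% and 0.110% of all RPKM in R2, R3, R4 and R5. With globin genes left out the share was 1.03%, 0.637%, 0.412% and 0.606%, so the order of the populations was the same and the distances were smaller. The large subunit held 0.658%, 0.416%, 0.257% and 0.389% of non-globin RPKM and the small subunit 0.371%, 0.221%, 0.155% and 0.218%. With globins left out of the totals, 27 genes were at least 2-fold lower in R5 than in R2 (29.8% of background genes), and after median scaling 8 were (13.7%). For R5 against R4, 5 genes were at least 2-fold higher with globins left out (2.98% of background genes) and 3 after median scaling (1.75%). The background's own R5 against R2 median went from -1.65 to -0.68 and -0.42 under these scalings, and that of the mitoribosomal genes from -1.97 to -0.85 and -0.52. Mrpl53, Mrpl14 and Mrps21 changed sign under both scalings, to 0.51, 0.17 and 0.02 with globins left out. Mrps18b (-1.46 and -1.12), Mrps23 (-1.45 and -1.12) and Mrps27 (-1.36 and -1.02) stayed at least 2-fold lower under both. R2 had the highest level of 69 and 64 of the 75 genes (69.7% and 62.4% of background genes), and R4 the lowest of 67 and 59 (56.1% and 37.3%).

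**Figure D5:**
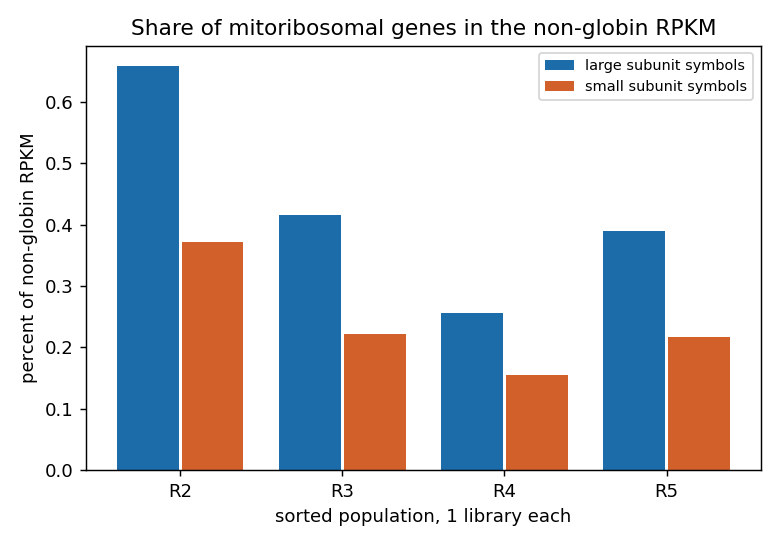
Percent of the summed non-globin RPKM held by the 46 large subunit genes (blue) and the 29 small subunit genes (orange) in each sorted population, 1 library each. Both bars are highest in R2 and lowest in R4, and the R5 bars are close to those of R3.

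Other genes of mitochondrial translation, from lists not drawn from the symbol rule, also had negative medians in the first 2 steps and positive ones in the last. All background genes had medians of the same signs (-1.09, -0.77 and 0.27), so the signs do not set these lists apart. All 7 further subunits of the particle were at least 2-fold lower in R5 than in R2 (median -2.08), with 76.9% of background genes called. Gadd45gip1, a large subunit protein near the tunnel exit, was at 147, 68.2, 28.3 and 46.4 RPKM in R2, R3, R4 and R5, and the small subunit protein Aurkaip1 at 98.3, 53.8, 27.2 and 38.8 RPKM. The smallest difference was that of Mrp63 (22.1, 13.1, 6.06 and 8.43 RPKM) and the largest that of Ptcd3, a pentatricopeptide repeat protein of the small subunit (33.2, 7.64, 2.44 and 4.15 RPKM).

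Of 22 factors for assembly of the ribosome, 21 were at least 2-fold lower in R5 than in R2 (median -1.89), with 76.9% of background genes called. The exception was Mrm1, a methyltransferase of the large ribosomal RNA, at 14.7, 27.6, 16.2 and 15.5 RPKM in R2, R3, R4 and R5. The most abundant were 1110032A13Rik, the symbol RefSeq pairs with the small subunit factor Rbfa, at 67.9, 18.4, 8.60 and 16.2 RPKM, and Mpv17l2 at 55.1, 22.7, 7.37 and 14.3 RPKM. The lowest ratio was that of 2610024G14Rik, paired with the GTPase Noa1, at 43.6, 7.90, 3.49 and 6.01 RPKM (-2.67). The level of Mrm1 was thus highest in R3 and nearly equal in the other populations, while the 3 other factors named were highest in R2.

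All 16 translation factors were at least 2-fold lower in R5 than in R2 (median -1.91), with 76.9% of background genes called. C1qbp, a matrix protein that supports mitochondrial translation, was at 267, 43.8, 18.3 and 40.2 RPKM in R2, R3, R4 and R5, and Tufm, the elongation factor that brings transfer RNAs to the ribosome, at 165, 36.3, 13.9 and 25.2 RPKM. The values of C1qbp lay close to those of Mrpl12 in all 4 populations. The release factor Mtrf1l had the smallest difference, at 3.37, 2.22, 0.75 and 1.07 RPKM. Of 17 mitochondrial tRNA synthetases 16 were at least 2-fold lower (median -2.02). Lars2, the leucine enzyme, was at 33.9, 23.1, 13.6 and 13.9 RPKM and Iars2, the isoleucine enzyme, at 39.6, 13.8, 5.40 and 7.72 RPKM. The exception was Fars2, the phenylalanine enzyme (14.7, 7.12, 4.01 and 7.57 RPKM, -0.87), and the lowest ratio that of Vars2, the valine enzyme (21.2, 3.43, 1.25 and 2.65 RPKM, -2.60).

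Of 10 genes for transcription and upkeep of mitochondrial DNA, 9 were at least 2-fold lower in R5 than in R2 (median -2.13), with 76.9% of background genes called. The tRNA-processing enzyme Elac2 was at 41.0, 9.34, 3.53 and 7.93 RPKM and the DNA polymerase Polg at 31.3, 10.6, 3.21 and 4.35 RPKM. Polrmt, the mitochondrial RNA polymerase, had the lowest ratio, at 25.1, 5.29, 2.0 and 2.92 RPKM (-2.74), and Mterf the highest, at 1.33, 1.19, 0.60 and 0.45 RPKM. Among 9 measured regulators of mitochondrial biogenesis past the filter, 8 were 2-fold lower (median -2.0). Myc was at 118, 15.8, 7.21 and 13.5 RPKM (-3.03) and Yy1 at 50.9, 25.1, 13.2 and 11.9 RPKM. Ppargc1a, the coactivator of mitochondrial biogenesis in many tissues, did not reach 0.1 RPKM in any population.

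Set beside 2 larger groups, the mitoribosomal genes had lower median ratios in the first 2 steps than the nuclear subunits of oxidative phosphorylation, while the cytosolic ribosomal proteins had a higher median in the first step and a lower one in the second. For R3 against R2 the median was -1.48 for the mitoribosomal genes, -1.19 for 75 cytosolic ribosomal protein genes and -0.81 for 78 oxidative phosphorylation genes. For R4 against R3 it was -1.20, -1.45 and -1.01. For R5 against R4 it was 0.69, 0.79 and 0.47. Over R5 against R2, 70 of the cytosolic ribosomal protein genes (median -1.86) and 61 of the oxidative phosphorylation genes (-1.42) were at least 2-fold lower, which is 93.3% and 78.2% of each list beside 76.9% of background genes. The share of oxidative phosphorylation genes was thus near the background. In shares of non-globin RPKM, oxidative phosphorylation genes held 3.27%, 3.28%, 2.66% and 3.20% in R2, R3, R4 and R5, nearly the same in R2 and R5, while the mitoribosomal share in R5 was lower than in R2. Cytosolic ribosomal proteins held 14.4%, 11.6%, 7.21% and 11.0%.

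Markers of other cells also differed between R2 and the other populations, for some cell types and not others. Granulocyte markers summed to 6271 RPKM in R2 against 241 to 481 in the others, and 10 macrophage markers to 98.8 RPKM in R2 against 24.0 to 57.0, with Cd163 at 0 in R2. A set of 7 lymphoid markers summed to 22.3 RPKM in R2 and 0.78 to 2.13 in the others, with the T cell gene Cd3e at 0 in all 4 and Cd3d at 0 in R3. The R2 sums of 9 hepatocyte markers (232 RPKM, against 193 to 566) and of 8 megakaryocyte markers (44.6 RPKM, against 24.4 to 72.4) lay within the range of the other populations. Their part in the higher mitoribosomal levels of R2 was not tested.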

How the data were processed

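RPKM values per gene symbol were deposited by the authors, 1 file per population. The genome build was mm9, per the submitters' processing notes; for the aligner, counting program, annotation and gene length this is not given in the sources used here. From these values log2 ratios of RPKM + 1 (pseudocount of 1 RPKM) were computed for genes that reached 1 RPKM in any library. The depth was worked out from values that are whole multiples of the RPKM of 1 read over 1 base divided by a whole number of countable bases (tolerance 0.0055 RPKM, up to 300 bases searched). Annotated lengths came from GENCODE vM21. Intervals are 95% exact binomial (Clopper-Pearson). The NRF1 core was searched in addition to the longer form first planned. Scripts were tested on simulated data.

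The members and the gene lists were chosen with earlier results of these data known. Named genes were the most abundant, those at the ends of each comparison, any at 0, the S18 paralogues, genes whose symbol differs from their place, and the most abundant and extreme of each other list; others are named as counted. Of 236 list entries, 10 were matched by RefSeq synonym and 5 were not matched; an older symbol counted only where RefSeq pairs it with the gene. Tools were Python 3.11.15, pandas 2.3.3, numpy 2.4.6, scipy 1.17.1 and matplotlib 3.10.9.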

Additional observations from a re-analysis of the deposited data

How the results depend on the processing

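No paired analysis was possible because each population has 1 library. In R5 against R2 the median ratio was -1.65 with a pseudocount of 5 RPKM, -0.52 with median scaling, -0.85 with globins left out and -0.49 with R3 in place of R2. The number of genes at least 2-fold lower was 8 with median scaling (13.7% of background genes) and 27 with globins left out (29.8%). For R5 against R3 it was 4 (13.1%). In R3 against R2 the median was -1.27, -0.61 and -0.71 under the first 3 of these settings, and in R4 against R3 it was -0.87, -0.26 and -0.64. In R5 against R4 it was 0.37 with median scaling, and the number at least 2-fold higher was 22 with a pseudocount of 0.1 RPKM, 1 with 5 RPKM, 3 with median scaling and 5 with globins left out. The direction of the family's median held in every setting tried for these 4 comparisons, but not for R5 against R3 (-0.49 as deposited, -0.08 with globins left out and 0.12 with median scaling). The distance of the family's median from that of all genes was an alternative chosen after seeing the data. For R5 against R2 it was -0.32, and it was -0.007 with a pseudocount of 0.1 RPKM, -0.70 with 5 RPKM and -1.65 without a filter. With median scaling it was -0.10, with a filter of 5 RPKM -0.12, and for R5 against R3 -0.0114. For R3 against R2 it was -0.17, -0.62 and -1.30 under the first 3 settings, and for R4 against R3 -1.07 without a filter, which adds genes listed near 0 to the background. The difference between the subunits stayed within 0.22 in size, and its sign was not stable for R5 against R2 or R4 against R3. For R5 against R2 it was -0.009 with a pseudocount of 0.1 RPKM, 0.11 by place and -0.095 with R3 in place of R2. For R4 against R3 it was -0.15 and 0.0064 with pseudocounts of 5 and 0.1 RPKM. The cause of these movements was otherwise not tested. Depth limits the genes under 30 reads in a library, which were 4 (Mrpl1, Mrpl23, Mrps33 and Mrps36) and, with annotated lengths halved, 6 (also Mrpl41 and Mrps6).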

Other observations

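Mrps36 can be set beside the enzymes of the oxoglutarate dehydrogenase complex, genes chosen after their values were seen. Ogdh, the first enzyme of the complex, was at 55.0, 53.9, 42.3 and 33.9 RPKM in R2, R3, R4 and R5, lower in each population than in the one before. The listed values of Mrps36 had the same order (51.7, 35.8, 23.6 and 15.1 RPKM), but no single step of Mrps36 was a detectable difference at its depth. Its steps from R2 to R3 and from R3 to R4 changed sign with globins left out and with median scaling. Dlst was at 102, 48.5, 18.1 and 19.7 RPKM and Dld at 29.6, 13.0, 4.72 and 5.28 RPKM, and both were slightly higher in R5 than in R4. In the deposited RPKM the complex as a whole thus showed no common order. The factors of median scaling, 0.555 for R4 and 0.716 for R5, differ by more than these R4 and R5 values do. The order of R4 and R5 in Dlst and Dld therefore depends on the scaling, and their reads were not worked out.

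Among the regulators of mitochondrial biogenesis, Nrf1 had its highest level in R3, at 23.8, 26.7, 11.5 and 11.8 RPKM in R2, R3, R4 and R5, while Esrra was at 18.4, 2.80, 1.29 and 3.34 RPKM. Gabpa, the DNA-binding subunit of GABP, was at 8.19, 3.72, 1.25 and 1.10 RPKM, and its partner Gabpb1 at 8.24, 6.61, 2.95 and 3.50 RPKM. Dap3, the GTP-binding protein of the small subunit that lacks an Mrps symbol, was at 56.0, 20.2, 7.63 and 11.0 RPKM, and Ict1, a peptidyl-tRNA hydrolase built into the large subunit, at 47.4, 18.4, 6.91 and 9.71 RPKM. The last 2 lay close to the medians of the mitoribosomal genes in each population.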
